A study of Mus musculus with 9 samples.

Results

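The 10 genes described here belong to the transforming growth factor beta (TGF-beta) pathway. They are the ligand gene Tgfb1, the receptor genes Tgfbr1 and Tgfbr2, the signal transducers Smad2, Smad3 and Smad4, the inhibitors Smad7, Ski and Skil, and Pmepa1, a gene that the pathway induces and whose product restrains it. They were taken by symbol from a table of 15434 genes, and all 10 were present and passed the filter on low values (10 or more in 3 or more libraries), as did 11766 genes in all. RNA had been sequenced from C57BL/6J mouse macrophages of 3 organs, the testis, the epididymis (the duct where sperm mature) and the brain, whose cells the library titles call microglia, in 3 libraries each. The cells were freshly isolated and received neither culture nor treatment. The sort took live cells positive for CD45, CD11b and F4/80 and negative for Ly6C and CD11c. The set was put together with the values of these 9 libraries known, and the comparison of the organs is the one it was selected on. The levels and differences of the 10 genes are therefore given as a description without p-values.

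TGF-beta is secreted in a latent form and released outside the cell. It binds a receptor made of a type II subunit, encoded by Tgfbr2, and a type I subunit, encoded by Tgfbr1, which phosphorylates SMAD2 and SMAD3. These join SMAD4 and enter the nucleus, where SKI and its relative SKIL (also called SnoN) hold target genes down. SMAD7 binds the type I receptor and blocks it, and PMEPA1, a membrane protein, sequesters SMAD2 and SMAD3, so that both act as negative feedback. In mice, microglia require TGF-beta for their mature gene expression, and the testis and epididymis are tissues in which the cytokine is known for keeping the immune response to sperm antigens low.

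Promoter sequences could be matched for 5 of the 10 genes (Tgfb1, Tgfbr1, Tgfbr2, Smad3 and Ski) in RefSeq on GRCm38.p6. Those of Tgfbr1 and Ski are shown because these genes had the same order of levels over the organs, testis lowest and brain highest, with no overlap between libraries. That of Smad3 is shown as the transducer whose mean had the same order. Each run gives the 250 bases before the transcription start, 5′ to 3′ on the strand of the gene. Capitals mark the letters of a SMAD-binding motif on either strand, which is the core GTCT, read from the opposite strand as AGAC, or the GC type GGCGC, read from the opposite strand as GCGCC. The letters of the core and of the GC type cannot overlap, while matches of the GC type can overlap each other.
Tgfbr1, chr4:47352972-47353221, plus strand: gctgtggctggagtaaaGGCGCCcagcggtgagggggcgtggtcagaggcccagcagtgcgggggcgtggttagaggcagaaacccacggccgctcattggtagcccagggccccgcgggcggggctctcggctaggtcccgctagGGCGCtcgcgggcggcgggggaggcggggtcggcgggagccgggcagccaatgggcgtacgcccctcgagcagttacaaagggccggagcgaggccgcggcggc
Ski, chr4:155222536-155222785, minus strand: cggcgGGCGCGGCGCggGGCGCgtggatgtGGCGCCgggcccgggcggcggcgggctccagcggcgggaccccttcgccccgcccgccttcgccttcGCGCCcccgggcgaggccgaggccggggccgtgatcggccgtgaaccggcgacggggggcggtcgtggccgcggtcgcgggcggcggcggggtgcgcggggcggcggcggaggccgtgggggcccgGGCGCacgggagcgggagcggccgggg
Smad3, chr9:63757995-63758244, minus strand: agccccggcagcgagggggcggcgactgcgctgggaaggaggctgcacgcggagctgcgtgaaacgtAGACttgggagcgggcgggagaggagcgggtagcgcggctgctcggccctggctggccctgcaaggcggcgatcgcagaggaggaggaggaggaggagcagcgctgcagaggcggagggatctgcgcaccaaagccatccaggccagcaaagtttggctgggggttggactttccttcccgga
The Tgfbr1 window, before the upstream of the 2 starts that RefSeq gives, held 3 GC-type matches and the Ski window held 7, and neither held the core. The window before the other Tgfbr1 start (chr4:47385966-47386215, not printed) held 2 core matches and no GC-type match. The Smad3 window held 1 core match, at position 68 counted from its 5′ end, and no GC-type match. Of 32851 RefSeq promoter windows of the same length, 82.9% held the core and 32% the GC type. The share of G and C was 74.8% in the printed Tgfbr1 window, 87.6% in that of Ski and 69.2% in that of Smad3. Windows so rich in G and C hold more GC-type and fewer core matches by composition alone. No expected count was computed, so the counts are not read as an excess. A match of letters is a description and does not show that a factor binds there.

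The depth was 2727092 to 4458688 gene-assigned reads per library, and values are reads divided by a factor per library, called normalised reads here. The 10 genes rested on between 50 reads (Smad7 in testis replicate 1) and 6666 reads (Pmepa1 in epididymis replicate 1). The labels give all 3 libraries of an organ the same mouse number, a different number for each organ, without stating that each library is another animal. Differences between organs and between mouse numbers thus cannot be told apart, and every SD, SE and p-value reflects the variation among these 9 libraries only, which may be technical. The protocol also says that cell suspensions of testis and epididymis were pooled in a tube, without saying whether the organs were kept apart, and the labels were taken as given. The brain libraries carried the summed level of 9 microglia markers at 17381 to 20639 normalised reads, against 717 to 1122 in testis and 4401 to 6195 in epididymis. Adgre1, which encodes F4/80, averaged 191 ± 78.2 in testis, 454 ± 199 in epididymis and 71.7 ± 25.5 in brain, in normalised reads. Itgax, the gene of CD11c, for which the sorted cells were to be negative, had 265, 209 and 294 in the epididymis libraries and 0 in every brain library.

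Pmepa1 had the widest difference of the set between testis and epididymis. It lies on chromosome 2 (173224458-173276533, minus strand, GENCODE M21 on GRCm38), and no other gene overlaps its exons. Its values were 420.3, 349 and 565 normalised reads in the testis libraries, 6060, 5772 and 6361 in the epididymis libraries and 3477, 3265 and 2184 in the brain libraries. No library of one organ overlapped with those of another, with testis lowest and epididymis highest. The mean was 445 ± 110.1 in testis, 6064 ± 294 in epididymis and 2975 ± 693 in brain (SD, n = 3 each). The log2 difference was -3.79 for testis minus epididymis, -2.74 for testis minus brain and 1.06 for epididymis minus brain (SE 0.23 each). The mean in epididymis was 13.6 times that in testis and 2.04 times that in brain. In these bulk libraries, fewer cells that express a gene and less of its RNA per cell cannot be told apart.

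**Figure D1:**
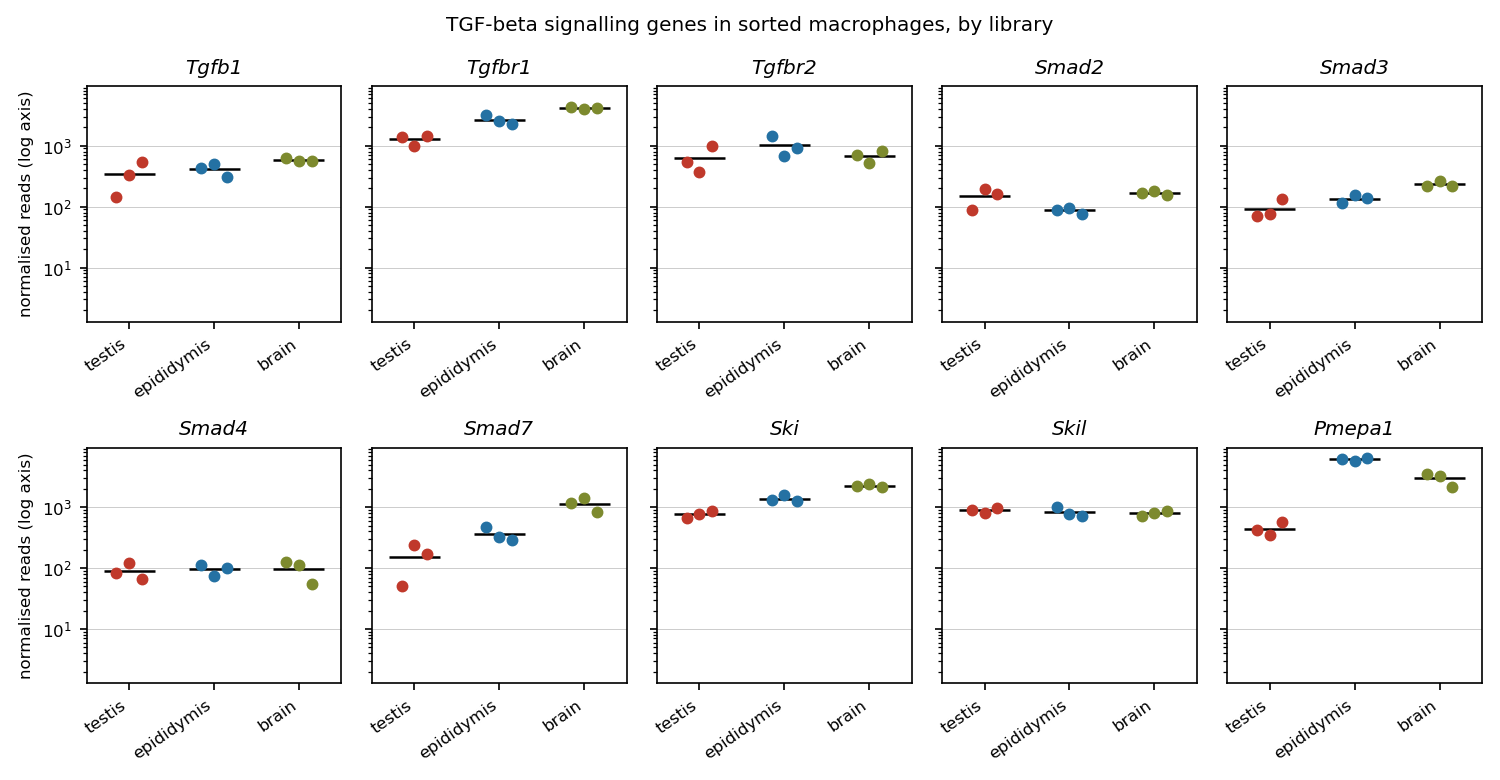
Normalised reads of the 10 genes on a log axis, with a point for each library and a line at the mean of each organ. The testis libraries lie lowest for Pmepa1 (349 to 565), Tgfbr1, Smad7 and Ski, the epididymis libraries lie highest for Pmepa1 (5772 to 6361), and the 3 organs overlap for Tgfbr2, Smad4 and Skil.

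Reads per kilobase of exon allow levels of different genes to be set side by side. On this scale Pmepa1 stood at 90.5 ± 22.4 in testis, 1234 ± 59.9 in epididymis and 606 ± 141 in brain. In epididymis it was the highest of the 10 genes, followed by Tgfbr1 at 408 ± 76.5 per kilobase. In brain it stood beside Tgfbr1 at 638 ± 32.1, a difference within the SD of Pmepa1. In testis it came after Tgfbr1 at 195 ± 35.9 and Ski at 137 ± 18.7, and lay within its SD of Skil at 92.2 ± 8.61. The lowest levels in testis were those of Smad2 at 16.8 ± 6.03 and Smad3 at 16.7 ± 6.51 per kilobase.

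Profiles over the 9 libraries were compared with that of Pmepa1 by Pearson's r of log2 values. Symbols in the pattern of provisional genes and small RNAs were left out, a pattern that also drops every symbol starting with Rn. Among the 5936 tested genes that remained with a mean of at least 100 normalised reads in an organ, the 5 with the highest r were named. They were Stard9 (r = 0.986), Vav1 (0.979), Rgs1 (0.978), Npnt (0.978) and Il21r (0.976). The 9 points fall into 3 organs, so that r mainly reflects the order of the organ means. Rgs1, a regulator of G-protein signalling, averaged 2213 ± 249 in testis, 7338 ± 435 in epididymis and 5027 ± 732 in brain. Vav1, a guanine nucleotide exchange factor of blood cells, averaged 510 ± 40.2 in testis, 1140 ± 96.6 in epididymis and 838 ± 89.5 in brain. Npnt, which encodes the extracellular matrix protein nephronectin, had no read in testis, while it averaged 196 ± 53.5 in epididymis and 85 ± 10.4 in brain.

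The ligand gene Tgfb1 (chromosome 7, 25687002-25705077, plus strand) varied most within the testis. Its values were 142, 335 and 543 normalised reads in testis, 433, 507 and 305 in epididymis and 617, 570 and 561 in brain. The brain libraries lay above all others, and testis and epididymis overlapped. The log2 difference was -0.97 for testis minus brain, -0.52 for epididymis minus brain and -0.46 for testis minus epididymis (SE 0.40 each). The last was 0.07 without testis replicate 1, so that its sign rests on that library.

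The receptor subunits differed from each other in profile. Tgfbr1, the type I receptor that phosphorylates SMAD2 and SMAD3 (chromosome 4, 47353222-47414931, plus strand), had 1374, 1006 and 1442 normalised reads in testis, 3216, 2543 and 2240 in epididymis and 4372, 3953 and 4181 in brain. Libraries of the 3 organs did not overlap, with testis lowest. The log2 difference was -1.07 for testis minus epididymis, -1.73 for testis minus brain and -0.66 for epididymis minus brain (SE 0.20 each), so the mean in brain was 3.27 times that in testis. Tgfbr2, the ligand-binding type II receptor (chromosome 9, 116084293-116175360, minus strand), had 538, 366 and 1002 in testis, 1460, 674 and 913 in epididymis and 702, 528 and 815 in brain. The organs overlapped in every pair for Tgfbr2, and a single library was highest both in testis (replicate 3) and in epididymis (replicate 1). Its means were 635 ± 329 in testis, 1016 ± 403 in epididymis and 682 ± 144 in brain. The log2 difference of Tgfbr2 was -0.73 for testis minus epididymis, -0.20 for testis minus brain and 0.52 for epididymis minus brain (SE 0.36 each). The middle value was 0.13 without testis replicate 2. Per kilobase, Tgfbr1 stood at 195 ± 35.9 against 77.6 ± 40.2 for Tgfbr2 in testis, at 408 ± 76.5 against 124 ± 49.2 in epididymis and at 638 ± 32.1 against 83.3 ± 17.6 in brain.

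The transducers had low levels in every organ. Smad3 (chromosome 9, 63646767-63757994, minus strand) had 69.4, 74.3 and 134 normalised reads in testis, 115, 154 and 138 in epididymis and 221, 260 and 214 in brain. The brain libraries lay above all others, with a log2 difference of -1.37 for testis minus brain and -0.78 for epididymis minus brain (SE 0.45 each). Testis and epididymis overlapped through testis replicate 3 (log2 difference -0.60, SE 0.45). Smad2 (chromosome 18, 76241580-76310963, plus strand) had 89.0, 191 and 163 in testis, 89.1, 94.7 and 76.5 in epididymis and 166, 177 and 157 in brain. Epididymis lay below brain in all libraries, with a log2 difference of -0.94 (SE 0.48). Testis spanned the values of both other organs, since replicate 1 matched the epididymis libraries and replicates 2 and 3 the brain libraries. The log2 difference of Smad2 was 0.70 for testis minus epididymis and -0.24 for testis minus brain (SE 0.48 each), the second of which was 0.09 without testis replicate 1.

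Smad4, the partner shared by all receptor-activated SMADs (chromosome 18, 73639009-73703780, minus strand), had 83.9, 120 and 66.7 normalised reads in testis, 114, 73.2 and 99.2 in epididymis and 128, 114 and 54.2 in brain. The organs overlapped fully, with means of 90.0 ± 27.0 in testis, 95.3 ± 20.5 in epididymis and 98.5 ± 38.9 in brain. The log2 differences of Smad4 were -0.10, -0.08 and 0.02 for testis minus epididymis, testis minus brain and epididymis minus brain, each with an SE of 0.60, and each changed sign when some library was left out. An SE of that size does not show that the organs were alike in Smad4.

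Smad7, the inhibitory SMAD that the pathway itself induces (chromosome 18, 75367529-75395935, plus strand), had the widest difference between testis and brain. It had 51.8, 235 and 174 normalised reads in testis, 475, 329 and 293 in epididymis and 1164, 1429 and 848 in brain. The libraries of the 3 organs did not overlap. The mean in brain was 7.47 times that in testis and 3.14 times that in epididymis. The log2 difference was -3.12 for testis minus brain, -1.65 for epididymis minus brain and -1.47 for testis minus epididymis (SE 0.46 each). The last lay between -1.90 without testis replicate 2 and -0.82 without testis replicate 1, whose value was the lowest. Without that library the difference between testis and brain was -2.47. Smad7 and Pmepa1, both feedback genes of the pathway, were thus both lowest in testis, while brain was highest for Smad7 and epididymis for Pmepa1.

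Ski and Skil encode related co-repressors of the SMAD complex, and their levels did not follow each other over the organs. Ski (chromosome 4, 155154075-155222592, minus strand) had 655, 776 and 863 normalised reads in testis, 1302, 1580 and 1252 in epididymis and 2201, 2419 and 2178 in brain, with no overlap between organs. Its log2 difference was -0.85 for testis minus epididymis, -1.57 for testis minus brain and -0.72 for epididymis minus brain (SE 0.20 each). Skil (chromosome 3, 31095058-31122577, plus strand) had 891, 811 and 978 in testis, 991, 781 and 721 in epididymis and 723, 809 and 853 in brain. The organs overlapped in every pair for Skil, and its log2 differences lay at 0.11, 0.17 and 0.05 for testis minus epididymis, testis minus brain and epididymis minus brain (SE 0.22 each). With libraries rescaled to the same total, the first 2 of these were -0.06 each.

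**Figure D2:**
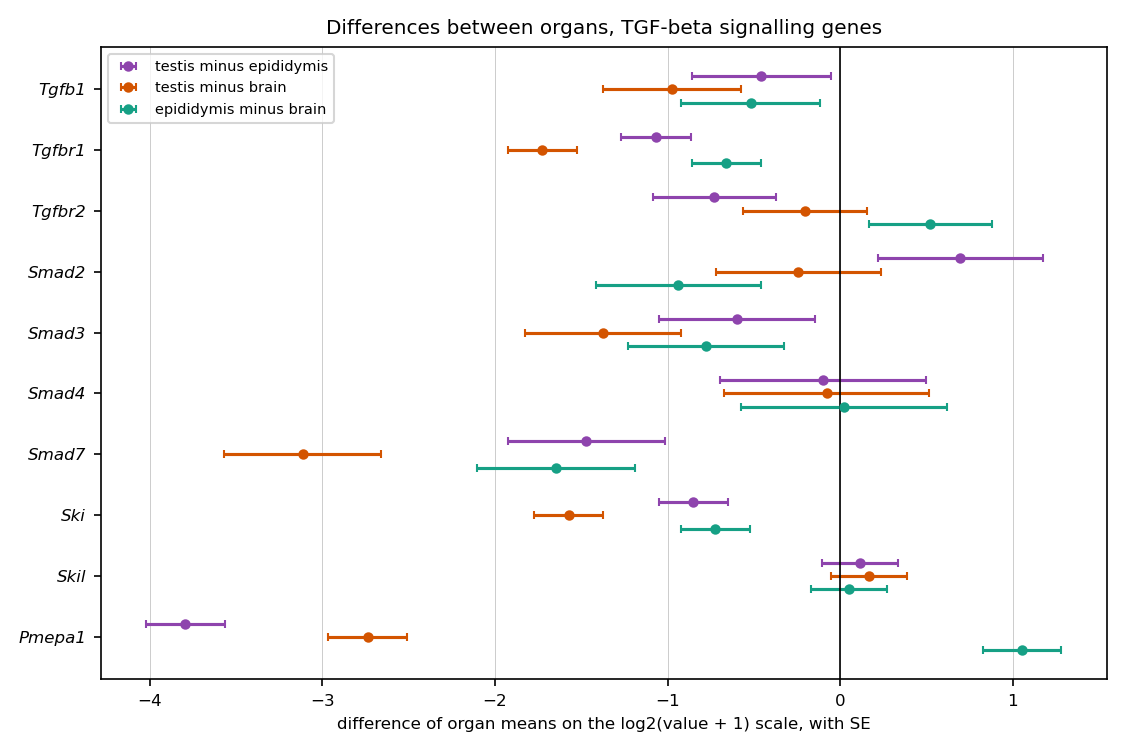
Differences of organ means for the 10 genes on the log2(value + 1) scale, with the standard error from the fit across all tested genes. Pmepa1 lies at -3.79, -2.74 and 1.06 for testis minus epididymis, testis minus brain and epididymis minus brain, Smad7, Tgfbr1 and Ski lie below 0 in all 3 comparisons, and Smad4 and Skil lie near 0.

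Several of the 10 genes had the same order of means as Tgfbr1, which was testis lowest, epididymis next and brain highest. These were Tgfb1, Tgfbr1, Smad3, Smad4, Smad7 and Ski, although the means of Smad4 differed by less than their SDs. Between testis and epididymis, 3 of the 10 (Tgfbr1, Ski and Pmepa1, all lower in testis) were past limma's threshold of an adjusted p below 0.05, against 4.39% of all 11766 tested genes. The libraries of testis and epididymis did not overlap for 4 of the 10, against 19.8% of all tested genes. Between testis and brain, 4 of the 10 (Tgfbr1, Smad7, Ski and Pmepa1, all lower in testis) were past the threshold, against 11.7% of all genes, and 6 did not overlap, against 30.8%. Between epididymis and brain, 1 of the 10 (Pmepa1, higher in epididymis) was past the threshold, against 4.79% of all genes, and 7 did not overlap, against 22%. The count past the threshold between epididymis and brain lay between 0 and 4 under the alternatives run, and without epididymis replicate 1, epididymis replicate 3 or brain replicate 3 it was 0. Without testis replicate 1 it was 3, and without testis replicate 2 it was 2. Since the genes were chosen with these comparisons known, nothing is read from these shares. The median log2 difference of the 10 genes was -0.66 for testis minus epididymis, -1.17 for testis minus brain and -0.59 for epididymis minus brain, against 0.10, -0.07 and -0.13 over all tested genes.

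The spread between libraries was widest in testis. The coefficient of variation of the 10 genes had a median of 32.9% in testis (range 9.34% to 60.8%), 17.9% in epididymis (4.85% to 39.6%) and 9.44% in brain (5.03% to 39.5%). Counting alone would give a median of 4.75% in testis, 4.1% in epididymis and 3.6% in brain. Smad7 (60.8%) and Tgfb1 (59%) varied most in testis, Tgfbr2 (39.6%) in epididymis and Smad4 (39.5%) in brain. Pmepa1 varied by 24.8% in testis, 4.85% in epididymis and 23.3% in brain. Over the 9 libraries the log2 values of Pmepa1 had a Pearson's r of 0.77 with Tgfbr1, 0.72 with Ski, 0.61 with Smad7 and with Smad3, 0.53 with Tgfbr2, 0.45 with Tgfb1, 0.14 with Smad4, -0.36 with Skil and -0.42 with Smad2. These values describe 9 points in 3 organs.

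The organs also differed in the genes of the sort gate and of macrophages in general. The summed level of 10 such genes, of which Csf1r took 55.7% in testis, 49.8% in epididymis and 46.5% in brain and Cx3cr1 15.7%, 27.3% and 33.2%, was 13000 to 15302 in testis, 26877 to 30860 in epididymis and 44521 to 49366 in brain, in normalised reads. That order is the order of Tgfbr1 and Ski. Within the sum, Csf1r, Cx3cr1, Mertk and Itgam had it. Ptprc, Fcgr1, Adgre1, Cd68 and Itgax were highest in epididymis, and Ly6c2 in testis. Itgax and Ly6c2 belong to markers for which the sort was negative. Since the sum had the order of Tgfbr1 and Ski, the values of the 10 TGF-beta genes were also divided by it. That scale was chosen after the data were seen and depends on the genes summed. The sum was lowest in testis and highest in brain, so a gene with like normalised reads comes out highest in testis. A gene with the order of the sum comes out flatter. On that scale Tgfbr1 stood at 89.4 ± 22.7 in testis, 95.4 ± 23.6 in epididymis and 89.7 ± 7.42 in brain, per 1000 normalised reads of the sum. Ski stood at 53.6 ± 11.6 in testis, 49.1 ± 8.95 in epididymis and 48.8 ± 4.34 in brain. For both, the organs overlapped on this scale, and the log2 difference of Ski was 0.12 for testis minus epididymis and for testis minus brain. Without Csf1r and Cx3cr1 in the sum it was -0.20 and -0.38, and the organs overlapped on both scales.

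Pmepa1 differed between the organs on the same scale too. It had 28, 22.8 and 43.5 in testis, 225, 213 and 206 in epididymis and 78.1, 71.1 and 44.2 in brain, per 1000 normalised reads of the sum. Epididymis lay far above both other organs, with a fold of 7.10 over testis and 3.43 over brain (geometric means). Testis and brain came close, since the highest testis library (43.5) lay just under the lowest brain library (44.2), and their log2 difference was -1.05, against -2.74 in normalised reads. Smad7 had 10.7 ± 6.38 in testis, 13.1 ± 4.16 in epididymis and 24.8 ± 7.07 in brain, so that testis still lay below brain in all libraries and the other pairs overlapped. Skil, whose organs overlapped in normalised reads, had 62.5 ± 11.4 in testis, 29.7 ± 6.79 in epididymis and 17.1 ± 0.723 in brain, with no overlap. Smad2 in testis (10.3 ± 3.81) lay above epididymis (3.10 ± 0.544) and brain (3.59 ± 0.357) in all libraries, and Tgfbr2 in testis (45.6 ± 27.9) and epididymis (36.3 ± 15.8) lay above brain (14.6 ± 2.70). The difference of the sum itself between the organs enters each of these values. Without Csf1r and Cx3cr1 in the sum, testis and brain overlapped for Tgfbr2 and epididymis and brain for Skil. On that second scale, Pmepa1 stood at 111 ± 39.9 in testis, 946 ± 96.7 in epididymis and 311 ± 30.6 in brain. Tgfbr1 stood there at 315 ± 85.1 in testis, 420.05 ± 107 in epididymis and 447 ± 81.9 in brain.

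**Figure D3:**
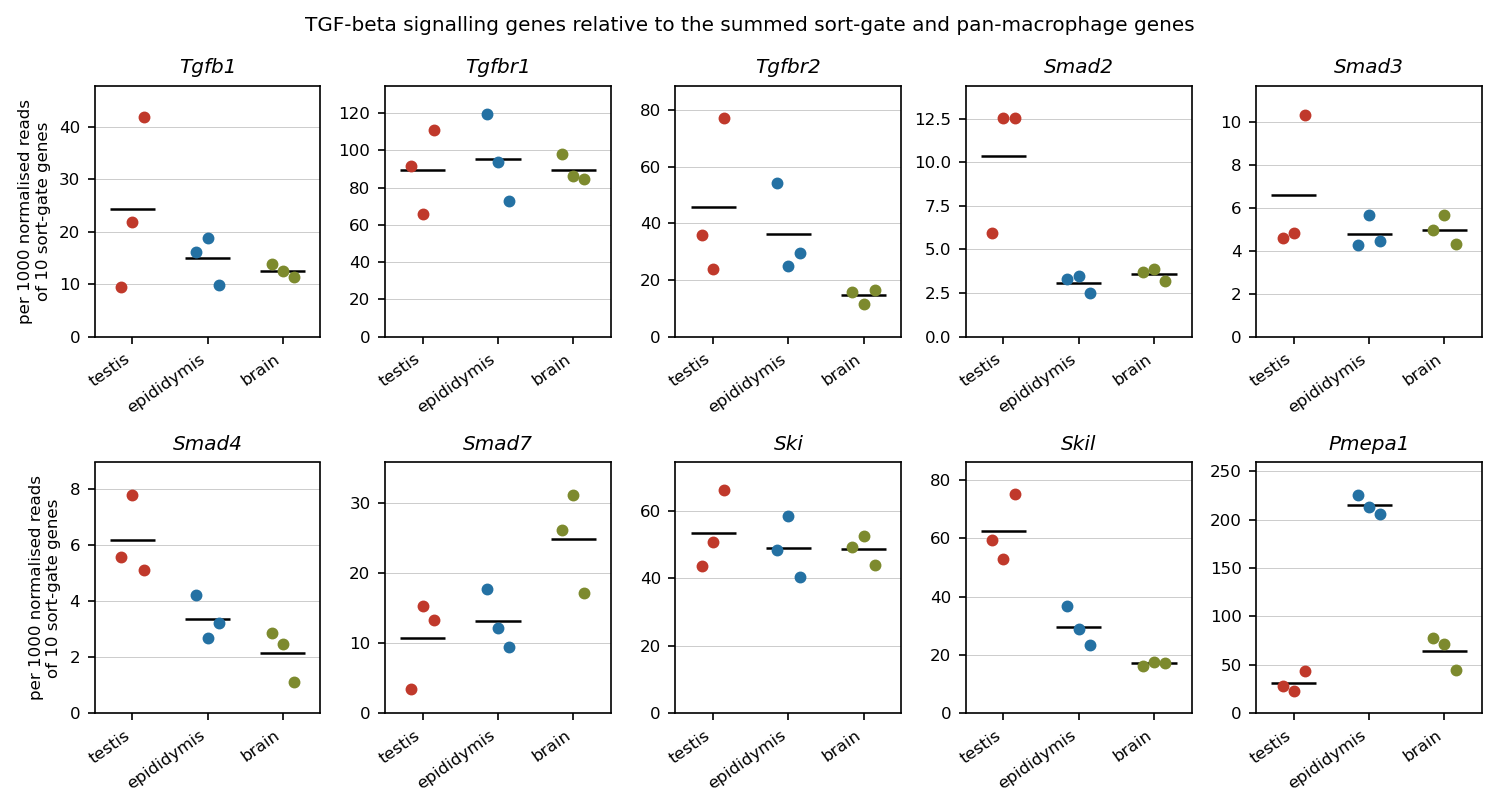
The 10 genes per 1000 normalised reads of the summed sort-gate and pan-macrophage genes of the same library, with a point for each library and a line at the mean of each organ, on linear axes from 0. Tgfbr1 and Ski lie at like levels in the 3 organs, while Pmepa1 lies at 206 to 225 in epididymis, above all other libraries. Skil is highest in testis, where the sum was lowest.

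Summed markers of several other cell types differed between the organs as well, while those of others overlapped. In testis the summed level of 8 T and NK cell markers was 839 to 1207 normalised reads, against 65.5 to 179 in epididymis and 72.9 to 154 in brain. The 7 monocyte markers summed to 3459 to 4178 in testis, 152 to 393 in epididymis and 155 to 249 in brain. The 6 Leydig cell markers summed to 1279 to 3186 in testis, 29.1 to 201 in epididymis and 75.8 to 105 in brain, with Insl3, Cyp17a1, Hsd3b1 and Hsd3b6 at 0 in epididymis and all but Insl3 of these at 0 in brain. The 6 epididymal epithelium markers summed to 0 to 42 in testis, 427 to 527 in epididymis and 0 to 4.44 in brain. The 4 platelet markers, from cells rich in Tgfb1, summed to 0 to 20.2 in testis, 0 to 15.1 in epididymis and 58.7 to 119 in brain, with Gp9 at 0 in testis and epididymis. The 9 fibroblast and smooth muscle markers summed to 264 to 334 in testis, 48.2 to 201 in epididymis and 31.9 to 66.9 in brain. The 6 spermatid markers summed to 743 to 1833 in testis, 422 to 673 in epididymis and 0 to 14.5 in brain, where Prm1, Tnp2, Odf1 and Akap4 were at 0. The 6 neutrophil markers in the table (of 8 listed) summed to 0 to 9.40 in testis, 52.8 to 151 in epididymis and 330 to 702 in brain. S100a8, S100a9, Ly6g, Camp and Ngp were at 0 in testis, Camp and Ngp in epididymis and Ly6g in brain. In the brain libraries Csf3r alone had 332, 245 and 202. The 7 astrocyte, neuron and oligodendrocyte markers summed to 188 to 754 in testis, 178 to 312 in epididymis and 375 to 501 in brain. Testis thus spanned the range of brain for them. The 3 Sertoli cell markers summed to 32.5 to 97 in testis, 50.9 to 193 in epididymis and 51.9 to 107 in brain. For 5 B cell markers the sums were 73.5 to 80, 48.8 to 138 and 0 to 60.2, and for 4 endothelial markers 174 to 263, 121 to 231 and 291 to 465. The part of these cell types in the levels of the 10 genes was not tested.

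For the rest of the pathway, 126 further genes were listed by role, of which 107 were in the table and 93 passed the filter on low values. These lists were written with earlier results of these data known, and the p-values do not account for that choice. Nothing is therefore read from the shares called, here and below, against those of all genes. By limma with Benjamini-Hochberg adjustment over all 11766 genes, 4 of the 93 were higher and 4 lower in testis than in epididymis (8.6% called, against 4.39% of all genes). Between testis and brain, 11 were higher and 4 lower in testis (16.1%, against 11.7%). Between epididymis and brain, 7 were called, all higher in epididymis (7.53%, against 4.79%). The first count of 8 was 4 without testis replicate 2, epididymis replicate 1 or epididymis replicate 2, and 5 without epididymis replicate 3. The last count of 7 was 2 without epididymis replicate 1, 3 without brain replicate 1, and 4 without epididymis replicate 3, brain replicate 2 or brain replicate 3. Of the 27 calls of the genes named by rule, 15 were lost when the prior variance was given no trend on the level. The median log2 difference of the 93 genes was 0.05 for testis minus epididymis, -0.23 for testis minus brain and -0.18 for epididymis minus brain.

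Genes of the storage and activation of latent TGF-beta went in both directions. Of 11 tested, 1 rose and 2 fell in testis relative to epididymis (27.3%, against 4.39% of all genes). In testis relative to brain 1 rose and 1 fell (18.2%, against 11.7%), and in epididymis relative to brain 1 rose (9.09%, against 4.79%). Itgb5, an integrin subunit that takes part in releasing TGF-beta, averaged 133 ± 31 in testis, 464 ± 168 in epididymis and 738 ± 201 in brain. It fell by 1.74 on the log2 scale in testis relative to epididymis (SE 0.36, limma adjusted p = 0.0113) and by 2.46 relative to brain (limma adjusted p = 0.000258). The first call was lost without testis replicate 2, epididymis replicate 1 or epididymis replicate 2 (limma adjusted p of 0.056 to 0.0617). Mmp14, a membrane-bound metalloprotease, averaged 175 ± 104 in testis, 689.8 ± 181 in epididymis and 160 ± 81 in brain. Its log2 difference was -2.20 for testis minus epididymis (SE 0.53, limma adjusted p = 0.0266), and in epididymis it rose by 2.17 relative to brain (SE 0.53, limma adjusted p = 0.0254). Without testis replicate 2 the first of these was -1.52. The first call of Mmp14 was lost without testis replicate 2 or any epididymis library (limma adjusted p of 0.0578 to 0.0979), and the second without epididymis replicate 1 or 3 or brain replicate 1 or 2 (0.0922 to 0.118). Itgb1, the common partner of many integrins, averaged 1332 ± 269 in testis, 724 ± 99 in epididymis and 567 ± 24.9 in brain. Its log2 difference was 1.21 for testis minus brain (SE 0.23, limma adjusted p = 0.00248). For testis minus epididymis it was 0.87 (SE 0.23, limma adjusted p = 0.0466), and that call was lost without any one library other than testis replicate 3 (limma adjusted p of 0.0588 to 0.163). Furin, the protease that cleaves the TGF-beta precursor, averaged 909 ± 49.3 in testis, 699 ± 226 in epididymis and 636 ± 17.3 in brain. Nrros, which tethers latent TGF-beta to myeloid cells and microglia, averaged 247 ± 121 in testis, 206 ± 122 in epididymis and 297 ± 17.1 in brain. Neither Furin nor Nrros passed the test in any comparison, with limma adjusted p-values of 0.239 or more.

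Other ligands, receptors and adaptors had at most 1 call per list in each comparison. For epididymis minus brain, 14.3% of ligands, 9.09% of receptors and 12.5% of SMADs, anchors and adaptors were called, against 4.79% of all genes. For testis minus brain the shares were 0%, 9.09% and 12.5%, against 11.7%. None of these genes was called for testis minus epididymis. Of 7 tested ligands, Bmp2, a bone morphogenetic protein, rose in epididymis relative to brain. It had 82.7, 56.3 and 34.5 normalised reads in epididymis, no read in any brain library, and 4.14, 0 and 10.3 in testis, at least 19.8-fold higher in epididymis than in brain against a floor of 3 reads per library (limma adjusted p = 0.0285). That call was lost without epididymis replicate 1 or 2 or any brain library (limma adjusted p of 0.0607 to 0.11). Of 11 tested receptors and co-receptors, Acvrl1, the type I receptor ALK1, rose relative to brain in testis (log2 difference 2.92, SE 0.77, limma adjusted p = 0.0222) and in epididymis (3.28, SE 0.77, limma adjusted p = 0.022). It averaged 294 ± 64.3 in testis, 376 ± 70.3 in epididymis and 63.3 ± 50.5 in brain. The differences for testis and epididymis were 1.64 and 2.00 without brain replicate 2, and 3.61 and 3.97 without brain replicate 3. The testis call was lost without any one testis library (limma adjusted p of 0.0523 to 0.0868), and the epididymis call without testis replicate 2 or any epididymis library (0.051 to 0.0918). Bmpr2, the type II receptor for bone morphogenetic proteins, averaged 325 ± 69.7 in testis, 604 ± 146 in epididymis and 511 ± 13.4 in brain, with limma adjusted p-values of 0.0977 or more.

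Dab2, an endocytic adaptor that binds TGF-beta receptors and SMADs, had the lowest adjusted p among the 93 genes. It had 1692, 1805 and 2483 normalised reads in testis, 987, 1071 and 1160 in epididymis and 19.1, 70.2 and 91.5 in brain. The log2 difference was 5.27 for testis minus brain (SE 0.44, limma adjusted p = 1.05e-06) and 4.39 for epididymis minus brain (limma adjusted p = 1.76e-05), or 4.60 and 3.72 without brain replicate 1. Testis lay above epididymis in all libraries, but that difference did not pass (0.88, limma adjusted p = 0.313). Of the 8 tested SMADs, anchors and adaptors it was the only one called in any of the 3 comparisons. Wwp1, a ubiquitin ligase that works with SMAD7, averaged 160 ± 102 in testis, 348 ± 135 in epididymis and 75.7 ± 7.65 in brain. It rose in epididymis relative to brain (log2 difference 2.11, SE 0.57, limma adjusted p = 0.0478), and without testis replicate 2 or any epididymis or brain library that call was lost (limma adjusted p of 0.0521 to 0.164). It was the only one of 15 tested inhibitors and turnover genes called in any comparison (6.67% for epididymis minus brain, against 4.79% of all genes). Itch and Usp9x, the highest of the rest, had limma adjusted p-values of 0.501 or more.

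Of 16 tested nuclear co-factors, 18.8% were called for testis minus brain, against 11.7% of all genes, and 6.25% for epididymis minus brain, against 4.79%. Among them Runx3, a transcription factor that partners SMADs, rose in both other organs relative to brain. It averaged 652 ± 74.3 in testis, 463 ± 178 in epididymis and 46.9 ± 28.8 in brain, with a log2 difference of 3.97 for testis minus brain (SE 0.47, limma adjusted p = 3.35e-05) and 3.42 for epididymis minus brain (limma adjusted p = 0.000447). Ncor1 and Crebbp, the highest uncalled co-factors, had limma adjusted p-values of 0.103 or more. In the branch that does not use SMADs, the small GTPase gene Rhoa averaged 1503 ± 291 in testis, 1143 ± 252 in epididymis and 1533 ± 109 in brain, and Rock1, a kinase that it activates, 1190 ± 160, 1167 ± 119 and 853 ± 229 in the same order. Both had limma adjusted p-values of 0.216 or more. The other called genes between testis and brain, Zeb2, Runx1 and Id2, lie outside the rule for named genes and are named because the count includes them.

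Textbook target genes of the pathway went in both directions in testis. The list does not give the direction in which the pathway moves each gene, so the counts do not measure its output. Of 16 tested, 3 rose and 2 fell in testis relative to epididymis (31.2%, against 4.39% of all genes), and 6 rose and 2 fell in testis relative to brain (50%, against 11.7%). In epididymis relative to brain, 1 rose (6.25%, against 4.79%). Tgm2, a transglutaminase, averaged 91.3 ± 19.8 in testis, 393 ± 72.9 in epididymis and 278 ± 102 in brain. In testis it fell by 2.10 on the log2 scale relative to epididymis (SE 0.40, limma adjusted p = 0.00705) and by 1.54 relative to brain (limma adjusted p = 0.0203). The call against brain was lost without testis replicate 2 or 3 or brain replicate 1 or 3 (limma adjusted p of 0.0572 to 0.104).

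Other target genes rose in testis. Cdkn1a, an inhibitor of the cell cycle, had 1695, 1766 and 1427 normalised reads in testis, 239, 208 and 315 in epididymis and 288, 281 and 279 in brain. Its log2 difference was 2.69 for testis minus epididymis (SE 0.26, limma adjusted p = 4.9e-05) and 2.52 for testis minus brain (limma adjusted p = 9.16e-06). Junb, an AP-1 transcription factor, averaged 2469 ± 295 in testis, 638 ± 33 in epididymis and 1108 ± 455 in brain, with log2 differences of 1.94 (limma adjusted p = 0.000592) and 1.23 (limma adjusted p = 0.00593) for testis minus epididymis and minus brain. Gadd45b, a stress-response gene, averaged 378 ± 68.6 in testis, 68.8 ± 33.8 in epididymis and 57 ± 34.8 in brain, with log2 differences of 2.52 (SE 0.58, limma adjusted p = 0.0231) and 2.85 (limma adjusted p = 0.00432). The first Gadd45b call was lost without any one testis library or without epididymis replicate 1 or 2 (limma adjusted p of 0.0515 to 0.101). A list of 10 immediate early and heat shock genes, chosen after the data were seen and holding none of these 3, summed to 128375 to 145955 in testis, 42998 to 45382 in epididymis and 57052 to 93485 in brain, in normalised reads. Its part in Cdkn1a, Junb and Gadd45b was not tested.

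Id3, an inhibitor of differentiation factors, had 376, 323 and 600.2 normalised reads in testis, 205, 39.4 and 31.3 in epididymis and 12.8, 2.23 and 61.3 in brain (log2 difference 4.90 for testis minus brain, SE 1.00, limma adjusted p = 0.0043). That difference was 3.84 without brain replicate 2 and 5.97 without brain replicate 3. Bhlhe40, a transcription factor of activated immune cells, averaged 576 ± 176 in testis, 244 ± 142 in epididymis and 64.6 ± 21.1 in brain. Its log2 difference was 3.15 for testis minus brain (SE 0.46, limma adjusted p = 0.000263) and 1.81 for epididymis minus brain (limma adjusted p = 0.0342), and the second call was lost without testis replicate 2, epididymis replicate 1 or brain replicate 1 or 3 (limma adjusted p of 0.0668 to 0.142). Exons of Cdkn1a, Junb, Tgm2, Dab2, Bhlhe40, Acvrl1, Wwp1, Zeb2 and Runx1 overlap a gene on the opposite strand in GENCODE M21. The library kit does not mark the strand, so that reads within the shared stretches cannot be assigned to either gene. The length of these stretches was not measured.

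**Figure D4:**
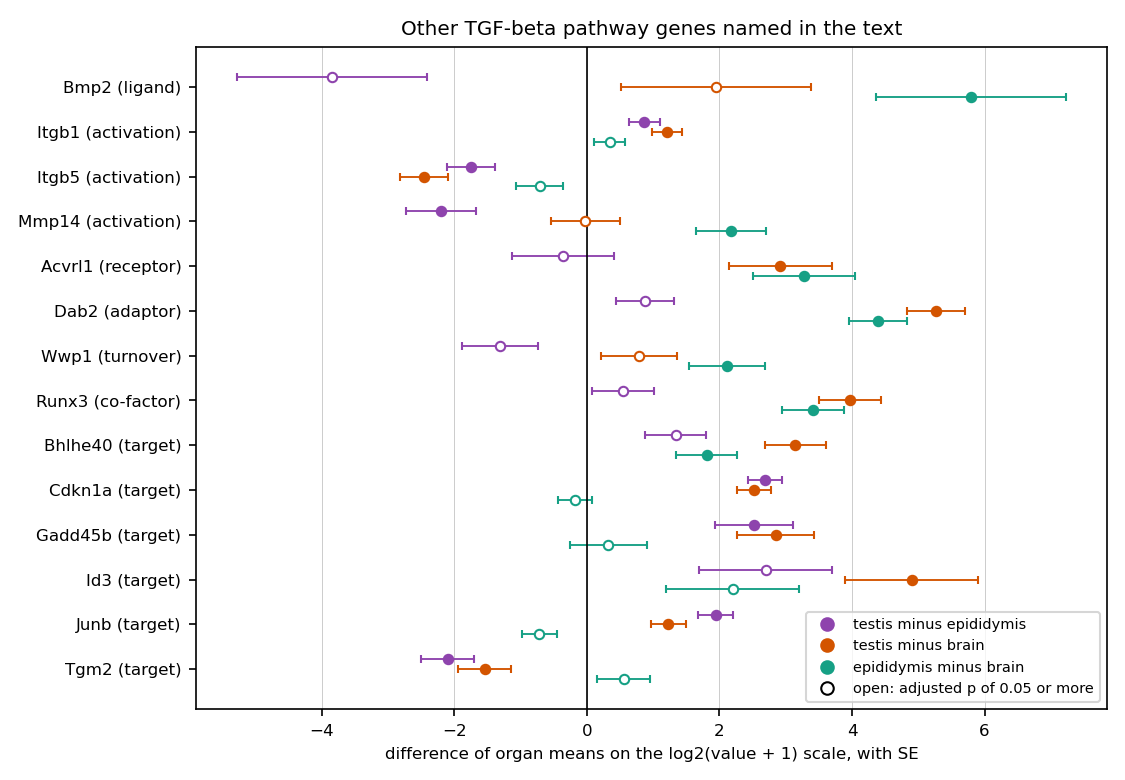
Differences of organ means on the log2(value + 1) scale, with standard error, for other pathway genes named by rule, where filled points mark a limma adjusted p below 0.05. Tgm2 lies below 0 and Cdkn1a, Junb and Gadd45b above 0 for testis minus epididymis and testis minus brain, and Dab2 reaches 5.27 for testis minus brain. Bmp2 had no read in brain, so its fitted differences from brain depend on the 1 added before the logarithm.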

How the data were processed

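Macrophages sorted from testis, epididymis and brain were profiled by RNA sequencing of 9 libraries, 3 per organ. Per the submitters' processing notes the tools were CASAVA 1.8, Bowtie2 2.2.1, Partek 6.6 and DESeq2 with the mm10 genome; what each did, how reads were counted and against which annotation is not given in the sources used here. The signal values in the deposited table are read numbers over a scaling factor that the library's genes share. Whole reads were recovered by dividing each library's values by its smallest value above 0, which gave whole numbers for 100% of them (within 3.9e-10 reads). All value columns were matched to a library, and 0 columns were left unused.

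Genes at 10 or more in 3 or more libraries were fitted as log2(value + 1) with 1 mean per organ over all 9 libraries in limma 3.58.1 (R 4.3.3), with a trended prior variance and Benjamini-Hochberg adjustment over 11766 genes. Differences and standard errors come from this fit. On the recovered reads, edgeR 4.0.16 called 366, 1056 and 458 genes and DESeq2 1.42.0 called 788, 1583 and 910, against 516, 1371 and 564 with limma, for testis minus epididymis, testis minus brain and epididymis minus brain. The procedure was tested on simulated data. Levels per kilobase use the merged exons of GENCODE M21 on GRCm38. The 10 genes and the pathway and marker lists were chosen with earlier results of these data known. Pathway genes were named where called in a comparison (where over 10 were called, the 10 with the largest difference and a mean of at least 100 in the higher organ). High uncalled genes were named for some lists, but not for the ligands, the SMADs, anchors and adaptors or the target genes. Some ligands, target genes and other listed genes were not analysed here. The values of 1 called target gene, which the counts include, are not reported here.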

Additional observations from a re-analysis of the deposited data

How the results depend on the processing

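Of the 30 differences of the 10 genes, 21 kept their sign under all 19 other settings of the fit that were run. The other 9 were all those of Skil and Smad4, those of Smad2 and Tgfbr2 between testis and brain and that of Tgfb1 between testis and epididymis. Relative to the sort-gate sum, chosen after the data were seen, Ski turned to 0.12 both for testis minus epididymis and for testis minus brain. Without Csf1r and Cx3cr1 in that sum it was -0.20 and -0.38. Several more of the 10 genes changed sign relative to the sum, while Pmepa1 and Smad7 kept theirs. For testis minus brain, Tgfb1 was 0.72, Smad3 0.31, Tgfbr2 1.49 and Smad2 1.45. Without Csf1r and Cx3cr1 these were 0.22, -0.19, 0.99 and 0.95. For testis minus epididymis, Tgfb1 was 0.51, Tgfbr2 0.24 and Smad3 0.37. For Tgfb1 and Smad3 the organs overlapped in every pair on both scales. Of 27 calls of the pathway genes named by rule, 11 held under every setting, 16 were lost in at least 1 and 15 of these were lost without the variance trend.

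Without the variance trend, pathway calls numbered 1, 8 and 3 for testis minus epididymis, testis minus brain and epididymis minus brain, against 8, 15 and 7. Calls over all genes numbered 192, 837 and 306, against 516, 1371 and 564. Of the 10 genes, 1 was then past the threshold for testis minus epididymis and 0 for epididymis minus brain, against 3 and 1. With only the 6 libraries compared, testis minus epididymis gave 4 pathway calls and 250 calls in all, and epididymis minus brain 2 of the 10 genes. DESeq2 on whole reads gave 788 calls in all for testis minus epididymis, and for epididymis minus brain 910 calls in all, 11 pathway calls and 4 of the 10 genes. For epididymis minus brain, a pseudocount of 8 and edgeR on whole reads each gave 2 of the 10 genes, a filter at 50 and rescaling to the same total each gave 3, and quantile normalization gave 4. The cause of these shifts was not tested.

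Leaving out 1 library gave 4 to 7 pathway calls for testis minus epididymis and 2 to 9 for epididymis minus brain. Over all genes it gave 278 to 442, 827 to 1457 and 320 to 597 calls for the 3 comparisons, and 0 to 3 of the 10 genes for epididymis minus brain. The lower counts over all genes came without testis replicate 2 (301), epididymis replicate 2 (278) or epididymis replicate 3 (293) for testis minus epididymis, and without brain replicate 1 (827 for testis minus brain, 320 for epididymis minus brain) or brain replicate 2 (889 and 327). Rescaling to the same total moved the median log2 difference of all genes by -0.17 for testis minus epididymis and -0.23 for testis minus brain. It put the share of calls higher in testis at 42.5%, against 56.8%, and at 45.9%, against 58.6%. No paired analysis was possible because the labels give libraries of different organs no shared replicate number. The coefficient of variation of the 10 genes between testis libraries had a median of 32.9%, against 4.75% from counting error.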
